A study of Canis lupus with 23 samples.

Results

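The TNF ligand and receptor superfamily was examined as the genes whose symbol in the platform annotation is TNFSF or TNFRSF followed by digits, with an optional last letter. The rule found 25 of the 15115 annotated genes, 10 ligands and 15 receptors. It reads symbols and no measured value, but the members were chosen with earlier results of these data known. The series holds 23 tumor biopsies from pet dogs with naturally arising cancer, with 1 array per tumor on the Affymetrix Canine Genome 2.0 array. The dogs were enrolled before any chemotherapy, radiation or immunotherapy. The paper reports more tumors on arrays, and more transitional cell carcinomas, than the series holds. A pathologist had checked each biopsy for its tumor content. The labels give 7 tumors as lymphoma, 5 as melanoma, 3 as TCC (transitional cell carcinoma of the bladder), 2 as STS (soft tissue sarcoma) and 2 as sarcoma, the last 4 being joined here as sarcoma. Hepatocellular carcinoma, nasal tumor, HSA (hemangiosarcoma) and histiocytic sarcoma are labelled on 1 tumor each and were not tested. The labels give no breed, age or sex for a tumor and do not say whether a lymphoma was of B or T cells. The methods name Scottish terriers for TCC and golden retrievers for lymphoma among the subsets enrolled, so that breed and tumor type may overlap, and cannot be told apart here. Each value below is log2(signal + 16), averaged over the probesets of a gene, and a difference between types is a difference of these log2 values. The scale has a floor at 4. Apart from a filter on low values, which held all genes to the same cutoff, levels were compared between tumors and not between genes.

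Ligands of the TNF superfamily are trimeric proteins, most of them held on the cell surface, and their receptors recruit TRAF or death domain adaptors that switch on NF-kB, MAP kinases or caspases. In lymphoid tissue the family sets the survival and activation of B and T cells, and RANKL (TNFSF11) with its receptor RANK (TNFRSF11A) and its decoy osteoprotegerin (TNFRSF11B) sets the formation of osteoclasts. Several members, among them TRAIL (TNFSF10) and death receptor 6 (TNFRSF21), are known for signals that can end in apoptosis.

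Most marker genes of the labelled tissues were higher in the types they mark, although the marker means of single lymphomas overlapped those of other types. All 8 T cell markers tested and 5 of 6 B cell markers were higher in lymphoma, and the marker means per tumor were 7.90 to 12.29 against 5.56 to 8.42 in the other 3 types for T cells and 6.17 to 10.37 against 4.71 to 7.23 for B cells. All 5 epithelial and all 5 urothelial markers were higher in TCC (11.18 to 11.48 against 5.37 to 7.35, and 10.69 to 11.61 against 4.57 to 6.87), all 6 melanocyte markers in melanoma (10.58 to 11.12 against 5.12 to 6.34) and 6 of 7 matrix markers in sarcoma (11.70 to 13.32 against 7.92 to 12.23). Of all genes tested, 6.95% were higher in lymphoma, 6.82% in TCC, 2.55% in melanoma and 4.33% in sarcoma. The hepatocyte markers averaged 13.90 in the hepatocellular carcinoma and at most 6.57 elsewhere, the endothelial markers were highest in the HSA (9.47), and the highest macrophage means were those of the HSA (11.72) and the histiocytic sarcoma (11.50). The 3′ over 5′ signal of the actin control, a sign of RNA or amplification quality, ran on the log2 scale from 4.87 to 6.32 in lymphoma, 5.78 to 9.05 in melanoma, 6.14 to 6.66 in sarcoma and 6.04 to 6.60 in TCC. The same ratio of the GAPDH control ran from 5.45 to 8.06 in lymphoma, 5.12 to 8.57 in melanoma, 5.31 to 9.74 in sarcoma and 5.85 to 6.22 in TCC. The part of these markers and of these ratios in the differences below was not tested.

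Of the 25 superfamily genes, 15 passed the filter on low values, 6 of the 10 ligands and 9 of the 15 receptors. Over the 23 tumors the median SD of a gene was 1.10 for the 15 and 0.71 for all 9972 genes that passed. In the F test over lymphoma, melanoma, sarcoma and TCC, 8 of the 15 (53.3%) differed among the types at an adjusted p under 0.05, against 35.6% of all genes tested. They were the receptors TNFRSF21 (adjusted p = 2.7e-05), TNFRSF14 (0.00277), TNFRSF12A (0.0125) and TNFRSF9 (0.0482), and the ligands TNFSF11 (5.49e-05), TNFSF13 (0.0266), TNFSF10 (0.0288) and TNFSF18 (0.0409). The decoy receptor TNFRSF11B and the ligand TNFSF8 did not pass the F test (adjusted p = 0.062 and 0.0879) but were called in at least 1 comparison between types. TNFRSF11B passed the F test with a pseudocount of 64 in place of 16 (0.0322), with either pair of sarcomas alone (0.0331 and 0.0191) and without STS 0, Sarcoma 0, Melanoma 1 or Melanoma 4 (from 0.0376 to 0.0489), and TNFSF8 with either pair of sarcomas alone (0.0255 and 0.0173) and without STS 0 (0.0201). In bulk tissue, fewer cells of a type and less RNA per cell cannot be told apart.

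**Figure D1:**
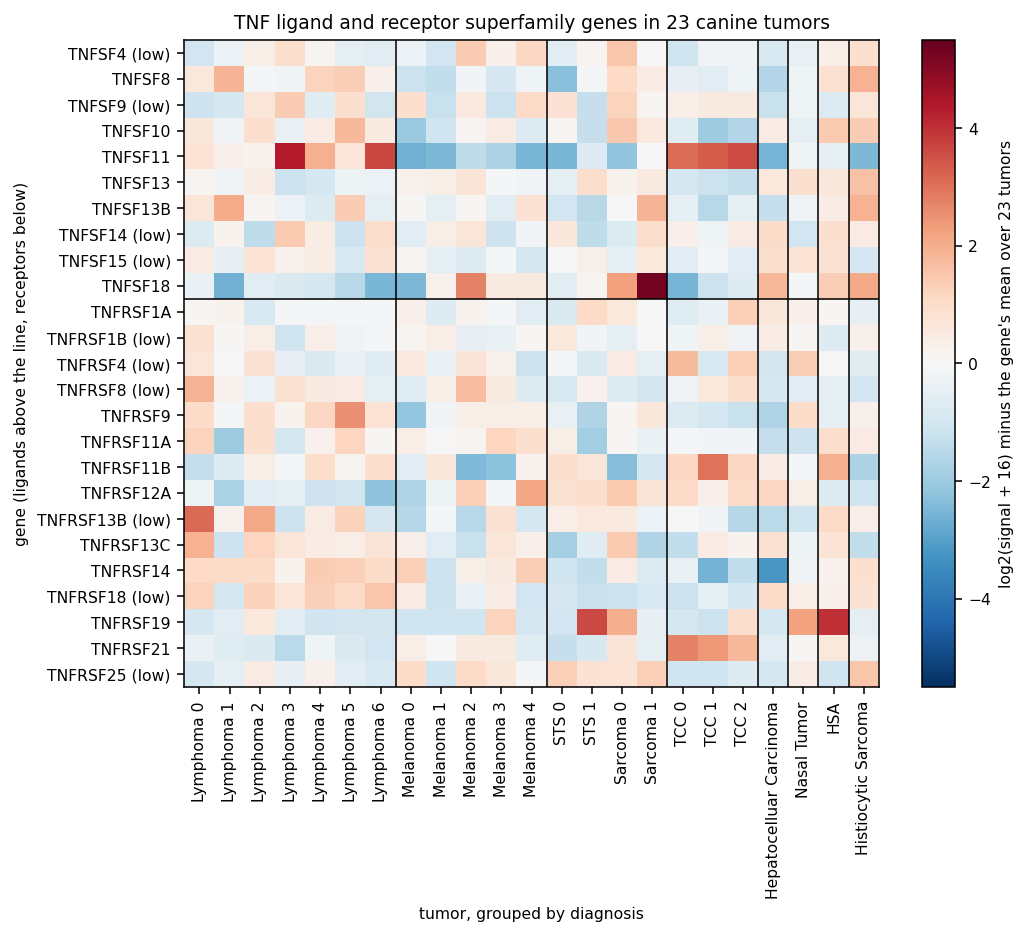
Level of the 25 superfamily genes in each of the 23 tumors, as log2(signal + 16) minus the gene's mean over the tumors, with tumors in columns by diagnosis, ligands above the horizontal line and receptors below it. Genes marked low did not pass the filter. The reddest cells of the TNFSF11 row are those of the 3 TCCs and of Lymphoma 3, 4 and 6, and those of the TNFRSF21 row are the 3 TCCs.

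Each type was then compared with the mean of the other 3, and a gene was called where the log2 difference reached 1 and the adjusted p lay under 0.05. In lymphoma 5 of the 15 superfamily genes were higher, against 6.95% of all genes tested, and 2 were lower, against 12.1%. In TCC 3 were higher, against 6.82% of all genes, and 2 were lower, against 4.36%. Melanoma had 0 members higher, where 2.55% of all genes were, and 1 lower, where 1.77% were. Sarcoma had 0 higher, against 4.33%, and 2 lower, against 1.71%. At an unadjusted p under 0.05 in limma, 2 of the 15 were higher in melanoma and 3 in sarcoma. For these and all later counts at an unadjusted p, the share of all genes at that threshold is not given. None of them is read as an excess. The median log2 difference of the 15 genes lay near that of all genes in lymphoma (0.12 against 0.07), melanoma (-0.11 against -0.05) and sarcoma (-0.06 against -0.04), and was -0.32 against -0.08 in TCC, with called members in both directions. The 4 comparisons share the same tumors and are not independent. The filter used these tumors too. TNFRSF9 exceeded its cutoff only in Lymphoma 0, 2, 4, 5 and 6 and the nasal tumor, and TNFSF11 only in lymphomas and TCCs. These 2 genes thus entered the counts through types in which they were called higher. The lymphoma call of TNFRSF9 was not lost with no filter.

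Between pairs of types, TCC had several calls against each of lymphoma, melanoma and sarcoma, and melanoma and sarcoma had none between them. Melanoma and TCC differed in 5 of the 15 (TNFSF11, TNFSF13, TNFRSF11B, TNFRSF14 and TNFRSF21), against 9.26% of all genes tested, lymphoma and TCC in 5 (TNFSF10, TNFRSF9, TNFRSF12A, TNFRSF14 and TNFRSF21), against 18.1%, and sarcoma and TCC in 3 (TNFSF11, TNFSF13 and TNFRSF21), against 9.48%. Lymphoma differed from sarcoma in 4 (TNFSF11, TNFSF18, TNFRSF12A and TNFRSF14), against 16.9%, and from melanoma in 2 (TNFSF8 and TNFSF11), against 15.4%. Between melanoma and sarcoma 0 of the 15 were called, against 1.78% of all genes, and 1 of the 15 had an unadjusted p under 0.05 in limma.

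**Figure D2:**
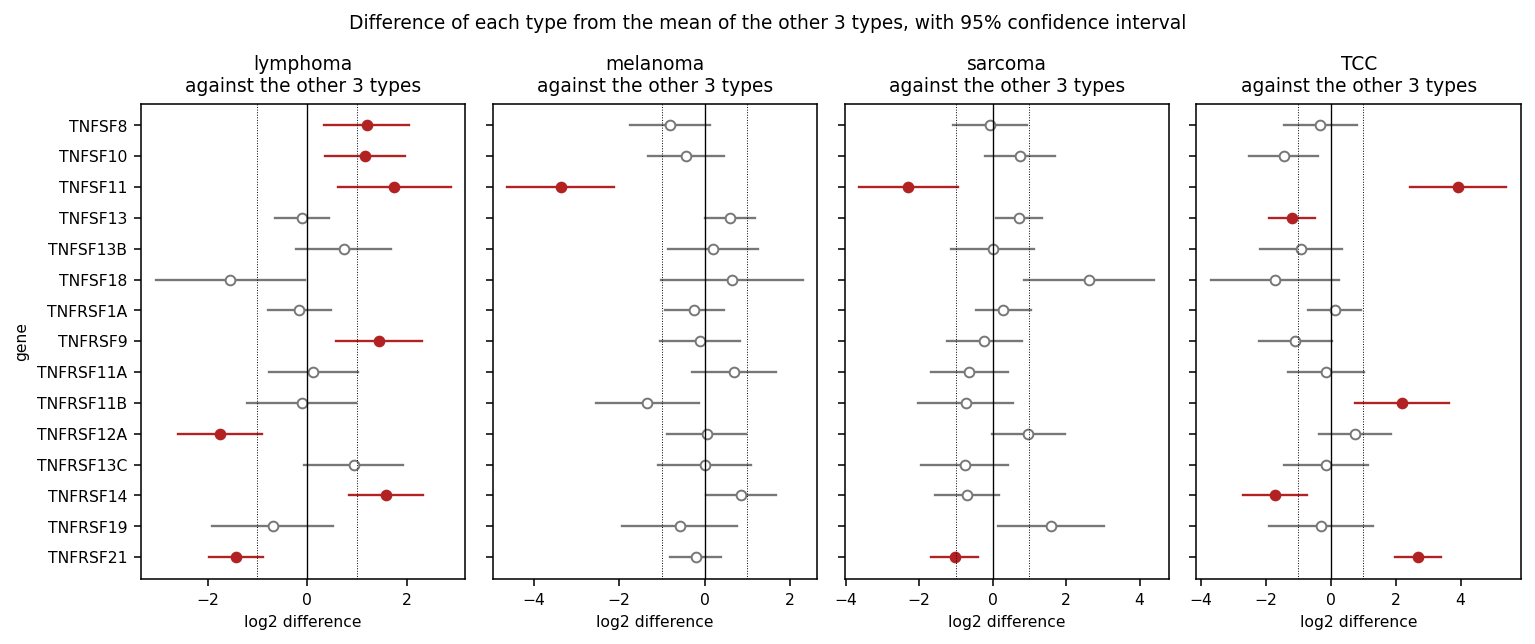
Log2 difference of each of 4 types from the mean of the other 3 for the 15 genes that passed the filter, ligands first. Horizontal lines are 95% confidence intervals, red filled points are called, open grey points are not, and dotted lines mark a difference of 1. The widest called differences are those of TNFSF11 in TCC and melanoma and of TNFRSF21 in TCC.

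Among the ligands, TNFSF11 (RANKL, the cytokine that drives osteoclast formation and is also made by activated T cells) had the widest differences between types. Its level, read from 1 probeset, was high in all 3 TCCs and in some lymphomas, and low in the melanomas. TNFSF11 values were 9.86, 10.12 and 10.40 in TCC 0, 1 and 2, and those of Lymphoma 0 to 6 were 7.54, 7.09, 6.98, 11.14, 8.73, 7.47 and 10.49. In Melanoma 0 to 4 they were 4.15, 4.33, 5.41, 5.10 and 4.26, and they were 4.29 and 6.10 in the STS tumors and 4.62 and 6.84 in the other sarcomas. Every lymphoma and every TCC lay above every melanoma and every sarcoma, and the 3 TCCs lay among the lymphomas, above all but Lymphoma 3 and 6. TNFSF11 was higher in TCC by 3.93 ± 0.71 (SE, 95% confidence interval 2.44 to 5.41, adjusted p = 0.000785). This difference was 4.82 with a pseudocount of 1 and 2.995 with 64. Melanoma 0, 1 and 4, STS 0 and Sarcoma 0 lay near the floor of the scale. TNFSF11 was lower in melanoma, with a log2 difference of -3.38 ± 0.60 (SE, 95% confidence interval -4.62 to -2.13, adjusted p = 0.00163). It was also lower in sarcoma, at -2.29 ± 0.64 (SE, adjusted p = 0.0338), and higher in lymphoma by 1.74 ± 0.54 (SE, adjusted p = 0.0182). Of the pairs, lymphoma exceeded melanoma by 3.84 ± 0.66 (SE, adjusted p = 0.000394) and sarcoma by 3.03 ± 0.70 (SE, adjusted p = 0.00448), and the differences of melanoma and sarcoma from TCC were -5.48 ± 0.82 (SE, adjusted p = 0.000137) and -4.66 ± 0.86 (SE, adjusted p = 0.00139). Lymphoma and TCC differed by -1.64 ± 0.78 (SE, 95% confidence interval -3.26 to -0.02, adjusted p = 0.142), which did not pass, but which passed with the number in the sample titles as a replicate block (log2 difference -2.39, adjusted p = 0.0299) and without Lymphoma 3 (log2 difference -2.08, adjusted p = 0.035). The lymphoma call was lost without Lymphoma 6 (log2 difference 1.41, adjusted p = 0.0506), with a pseudocount of 64 in place of 16 (log2 difference 1.08, adjusted p = 0.0634) and with the replicate block (log2 difference 1.13, adjusted p = 0.118), and the sarcoma call without STS 0, Sarcoma 0, TCC 1 or TCC 2 (log2 differences -2.29 to -1.90, adjusted p = 0.053 to 0.142), with a pseudocount of 1 (0.0645), the block (0.0982) or either pair of sarcomas alone (0.0795 and 0.235). With a type set against all other tumors of the 23, as 2 groups, the melanoma and sarcoma calls were lost (adjusted p = 0.191 and 0.594), and the lymphoma and sarcoma pair was lost with only the Sarcoma-titled tumors (0.0527).

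Within lymphoma, TNFSF11 spread over 4.16 log2 units, and the T cell marker mean did not take the same order in every tumor. The 3 lymphomas with TNFSF11 above 8, Lymphoma 3, 4 and 6, had T cell marker means of 11.53, 12.29 and 12.10, and the other 4 lymphomas had means of 8.49, 7.90, 8.29 and 9.96 in Lymphoma 0, 1, 2 and 5. Their B cell marker means were 7.39, 7.70 and 6.17, against 10.37, 7.73, 10.31 and 9.41. In the TCCs the T cell marker mean was 5.56 to 5.82, in the lower part of the range of all tumors, beside TNFSF11 values near 10. The part of these markers in the TNFSF11 levels was not tested.

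Of the receptors of RANKL, TNFRSF11B was called and TNFRSF11A was not, a contrast between genes that was not tested. TNFRSF11B (osteoprotegerin, the soluble decoy that binds RANKL) was highest in TCC, with values of 7.70, 9.56 and 7.71. In lymphoma TNFRSF11B ran from 5.26 to 7.51, with a median of 6.72. The melanomas were at 5.98, 7.17, 4.16, 4.31 and 6.78, and the sarcomas at 7.44 and 7.25 in the STS tumors and 4.23 and 5.63 in the other sarcomas. All 3 TCCs lay above every tumor of the other 3 types, the nearest being Lymphoma 4 at 7.51, while the HSA, which was not tested, was at 8.53. TNFRSF11B was higher in TCC by 2.19 ± 0.69 (SE, 95% confidence interval 0.75 to 3.63, adjusted p = 0.0396) and lower in melanoma than in TCC, with a log2 difference of -2.65 ± 0.80 (SE, adjusted p = 0.0383). The TCC call was lost without TCC 0, TCC 1, TCC 2 or Sarcoma 1 (log2 differences 1.57 to 2.50, adjusted p = 0.0516 to 0.291), with a pseudocount of 1 (0.1), no filter (0.0514), only the STS tumors (0.0661) or all 23 tumors as 2 groups (0.111). The call against melanoma was lost without TCC 0, Melanoma 2, TCC 1, TCC 2 or Melanoma 3 (log2 differences -2.96 to -2.03, adjusted p = 0.0637 to 0.222), with a pseudocount of 1 (0.0783), quantile normalization (0.0504) or the replicate block (0.0571). Calls were gained in lymphoma against TCC with a pseudocount of 64 (log2 difference -1.33, adjusted p = 0.0422) and in sarcoma against TCC with only the Sarcoma-titled tumors (log2 difference -3.40, adjusted p = 0.0282). TNFRSF11A (RANK, the signalling receptor) passed the filter with 3 tumors above the cutoff and ran from 4.10 to 7.26. Its values in the 3 TCCs were 5.97, 5.90 and 5.88, below the 5 melanomas and within the ranges of the lymphomas and sarcomas, and its difference in TCC was -0.16 ± 0.56 (SE, 95% confidence interval -1.33 to 1.01, adjusted p = 0.891). The F test of TNFRSF11A had an adjusted p of 0.518, and no comparison called it.

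**Figure D3:**
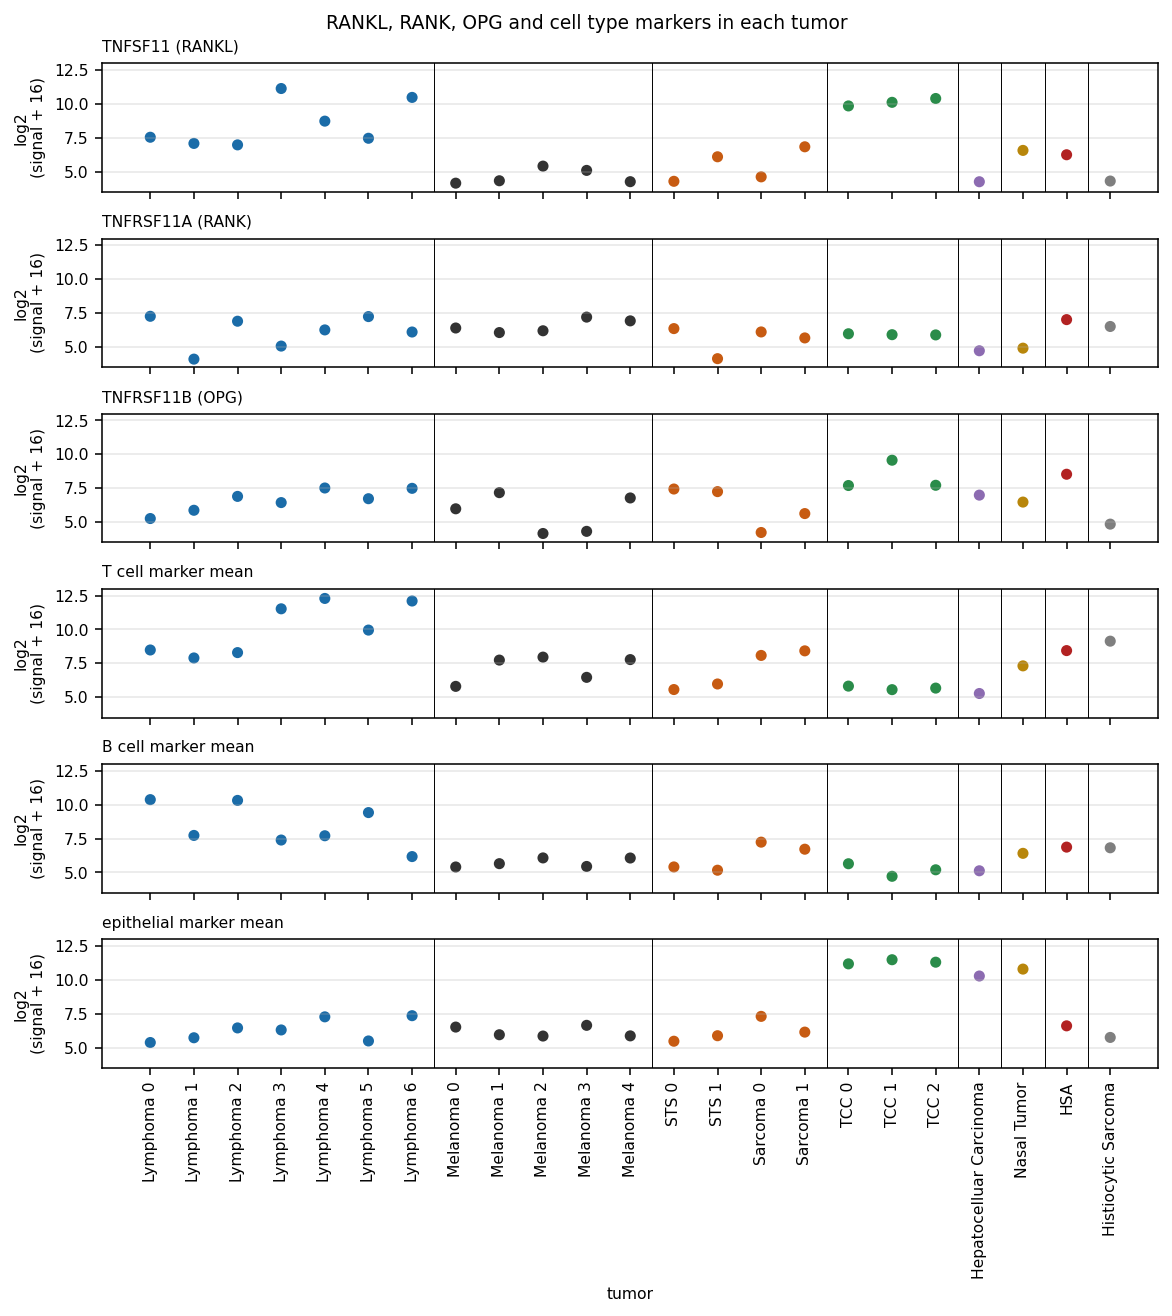
Level of TNFSF11, TNFRSF11A and TNFRSF11B in each tumor above the means of the T cell, B cell and epithelial markers, all as log2(signal + 16) with 1 point per tumor and vertical lines between types. TNFSF11 is at 9.86 or more in the 3 TCCs, where T cell means are under 6 and epithelial means over 11, and in Lymphoma 3 and 6, where T cell means are over 11.

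TNFSF10 (TRAIL, a ligand that can start apoptosis through death receptors) exceeded the filter cutoff in all 23 tumors and was higher in lymphoma. Lymphoma values of TNFSF10 ran from 10.93 to 13.13, with a median of 11.84, the melanomas were at 9.27, 10.24, 11.46, 11.78 and 10.63, and the TCCs at 10.64, 9.37 and 9.73. The sarcomas were at 11.48 and 10.06 in the STS tumors and 12.83 and 11.88 in the other sarcomas. Every lymphoma lay above every TCC, but lymphomas overlapped melanomas and sarcomas. TNFSF10 was higher in lymphoma by 1.15 ± 0.38 (SE, adjusted p = 0.0272) against the other 3 types and by 1.95 ± 0.55 (SE, adjusted p = 0.0155) against TCC, and its difference in TCC of -1.46 did not pass (adjusted p = 0.0644). That difference passed with only the Sarcoma-titled tumors (log2 difference -1.72, adjusted p = 0.0187), without STS 1 (log2 difference -1.62, adjusted p = 0.0238) and without Melanoma 0 (log2 difference -1.57, adjusted p = 0.031). Sarcoma against TCC was gained with only the Sarcoma-titled tumors (log2 difference 2.44, adjusted p = 0.0286) and without STS 1 (log2 difference 2.15, adjusted p = 0.0256), and lymphoma against melanoma with those tumors, without STS 1 or without Melanoma 3 (adjusted p = 0.0474, 0.0489 and 0.041). The HSA and the histiocytic sarcoma, at 12.77 and 12.74, lay near the highest values. The lymphoma call fell below the rule without STS 1, TCC 1, Lymphoma 2 or Lymphoma 5 (log2 differences 0.94 to 1.08, adjusted p = 0.0387 to 0.0714), and with the probeset of highest mean (log2 difference 0.98, adjusted p = 0.0489), the replicate block (log2 difference 0.77, adjusted p = 0.233), only the Sarcoma-titled tumors (log2 difference 0.89, adjusted p = 0.0707) or all 23 tumors (log2 difference 0.78, adjusted p = 0.214). The call against TCC was lost without TCC 1 or TCC 2 (log2 differences 1.68 to 1.86, adjusted p = 0.0674 to 0.0933) or with the block (0.0898), and the F test without TCC 1 or TCC 2 (adjusted p up to 0.0902), with the block (0.0795) or with the probeset of highest mean (0.0616). Its 2 probesets followed each other closely over the 23 tumors (Pearson r = 0.968).

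TNFSF8 (CD30 ligand, made by activated lymphocytes and macrophages) was also higher in lymphoma. In the 7 lymphomas TNFSF8 ran from 6.36 to 8.39, with a median of 7.10, the melanomas were at 5.31, 5.15, 6.37, 5.59 and 6.28, and the TCCs at 6.06, 5.95 and 6.28. The sarcomas were at 4.19 and 6.47 in the STS tumors and 7.62 and 6.90 in the other sarcomas. Lymphomas lay above the TCCs and, apart from Lymphoma 3, above the melanomas, and Sarcoma 0 lay among the higher lymphomas. The difference in lymphoma was 1.19 ± 0.41 (SE, adjusted p = 0.0303) against the other 3 types and 1.49 ± 0.50 (SE, adjusted p = 0.0379) against melanoma. The histiocytic sarcoma had the highest TNFSF8 of all 23 tumors, 8.41, next to Lymphoma 1 at 8.39. The lymphoma call fell below the rule without STS 0, Lymphoma 1, Lymphoma 4 or Lymphoma 5 (log2 differences 0.96 to 1.10, adjusted p = 0.029 to 0.0752), and with a pseudocount of 1 (log2 difference 1.56, adjusted p = 0.0598) or 64 (log2 difference 0.78, adjusted p = 0.023), the replicate block (log2 difference 1.14, adjusted p = 0.136), only the Sarcoma-titled tumors (log2 difference 0.87, adjusted p = 0.0536) or all 23 tumors (log2 difference 1.04, adjusted p = 0.0846). That against melanoma was lost without Lymphoma 0, Lymphoma 1, Melanoma 0, Melanoma 1, Lymphoma 4, Lymphoma 5 or Melanoma 3 (log2 differences 1.30 to 1.52, adjusted p = 0.0512 to 0.0883), and with both pseudocounts, no filter or the block (adjusted p = 0.0886, 0.029 with a log2 difference of 0.98, 0.0516 and 0.107). Lymphoma against sarcoma was gained with the STS tumors alone (log2 difference 1.90, adjusted p = 0.0382). TNFRSF8 (CD30), its receptor, did not pass the filter and reached 7.12 in Lymphoma 0.

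TNFSF13 (APRIL, which sustains plasma cells and B cells) was lower in TCC. The TCCs were at 6.35, 6.13 and 6.01, the melanomas at 7.53, 7.65, 8.03, 7.21 and 7.13, and the sarcomas at 6.77 and 8.29 in the STS tumors and 7.53 and 7.82 in the other sarcomas. The lymphomas ran from 6.13 to 7.71, with a median of 7.05. The TCCs lay below every melanoma and sarcoma and overlapped Lymphoma 3 and 4. TNFSF13 was lower in TCC, with a log2 difference of -1.20 ± 0.34 (SE, adjusted p = 0.0223), and higher by 1.35 ± 0.39 (SE, adjusted p = 0.0315) in melanoma and by 1.44 ± 0.41 (SE, adjusted p = 0.029) in sarcoma than in TCC. The histiocytic sarcoma had the highest value, 8.94. The call against the other 3 types was lost without TCC 0, TCC 1 or TCC 2 (log2 differences -1.30 to -1.12, adjusted p = 0.0636 to 0.108), with a pseudocount of 64 (log2 difference -0.95, adjusted p = 0.0107) or with all 23 tumors (0.0539), that against melanoma without TCC 0, Melanoma 1, Melanoma 2, TCC 1 or TCC 2 (log2 differences 1.22 to 1.44, adjusted p = 0.0596 to 0.112), with a pseudocount of 1 (0.0683) or no filter (0.0503), and that against sarcoma without STS 1, TCC 0, TCC 1, TCC 2 or Sarcoma 1 (log2 differences 1.21 to 1.53, adjusted p = 0.0621 to 0.0978), with a pseudocount of 1 (0.068) or with either pair of sarcomas alone (0.114 and 0.0532). The F test was lost without TCC 0, TCC 1 or TCC 2 (adjusted p up to 0.0846), with a pseudocount of 1 (0.065) or with only the STS tumors (0.0583).

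The 3 probesets of TNFSF13 did not measure alike, and the annotation gives them 2 gene identifiers. The probeset under the identifier 100568281 had log2 values within 4.24 to 7.74 and means of 6.30 for lymphoma, 5.75 for melanoma, 5.90 for sarcoma and 6.20 for TCC. The brighter of the 2 under 479484 had means of 8.37, 10.15, 10.24 and 7.19 in the same order, and the dimmer 6.27, 6.64, 6.65 and 5.10. Over the 23 arrays the 2 probesets of 479484 had r = 0.519, and with that of 100568281 they had r = -0.000684 and -0.0423. With the probeset of highest mean, TNFSF13 was lower in TCC, with a log2 difference of -2.40 (adjusted p = 0.00295), and it was also called higher in melanoma (1.55, adjusted p = 0.0335) and in sarcoma (1.67, adjusted p = 0.0272). It was also called lower in lymphoma than in melanoma (-1.77, adjusted p = 0.0102) and in sarcoma (-1.87, adjusted p = 0.0105). Averaging the 3 probesets held these differences to -1.20, 0.60 and 0.72.

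TNFSF18 (GITR ligand, a costimulator of T cells that is also made by antigen-presenting and endothelial cells) had the widest range of any member, from 4.05 in Lymphoma 1 to 12.02 in Sarcoma 1. Lymphoma values ran from 4.05 to 6.34, with a median of 5.72, and the TCCs were at 4.16, 5.55 and 6.01. The sarcomas were at 6.10 and 6.87 in the STS tumors and 8.99 and 12.02 in the other sarcomas, and the melanomas at 4.24, 6.94, 9.43, 7.19 and 7.21. All 7 lymphomas and 3 TCCs stayed under 6.34 or at it, and the high values were those of the 2 tumors titled Sarcoma, Melanoma 2 and, untested, the histiocytic sarcoma at 8.82, the hepatocellular carcinoma at 8.56 and the HSA at 8.08. TNFSF18 was lower in lymphoma than in sarcoma, with a log2 difference of -3.13 ± 0.94 (SE, 95% confidence interval -5.09 to -1.17, adjusted p = 0.0216). Its difference in sarcoma from the other 3 types, 2.63 ± 0.85 (SE, 95% confidence interval 0.84 to 4.41, adjusted p = 0.0651), did not pass. The pair was lost without Sarcoma 0 or Sarcoma 1 (log2 differences -2.96 to -1.95, adjusted p = 0.0533 to 0.113), the smaller size being that without Sarcoma 1, with the replicate block (0.05) or with the STS tumors alone (log2 difference -1.12, adjusted p = 0.445). The F test lost its call without Sarcoma 0, TCC 0, Lymphoma 1, Melanoma 1, TCC 1, Lymphoma 3, Lymphoma 4, Lymphoma 5, Melanoma 3, Sarcoma 1, Lymphoma 6 or Melanoma 4 (adjusted p up to 0.102), with a pseudocount of 1 (0.0736), no filter (0.0517), the block (0.0647) or the STS tumors alone (0.173), and with the 2 tumors titled Sarcoma as the sarcoma type the difference in sarcoma was 4.63 (adjusted p = 0.015). That difference also passed without STS 0 (log2 difference 3.42, adjusted p = 0.0351) or Melanoma 2 (log2 difference 2.83, adjusted p = 0.0424). The lower value in lymphoma against the other 3 types was called with the Sarcoma-titled tumors alone (log2 difference -2.21, adjusted p = 0.0133), without STS 0 (log2 difference -1.81, adjusted p = 0.0487) and without Melanoma 0 (log2 difference -1.78, adjusted p = 0.046), and sarcoma against TCC with those tumors alone (log2 difference 5.26, adjusted p = 0.0083) and without STS 0 (log2 difference 4.05, adjusted p = 0.0317).

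**Figure D4:**
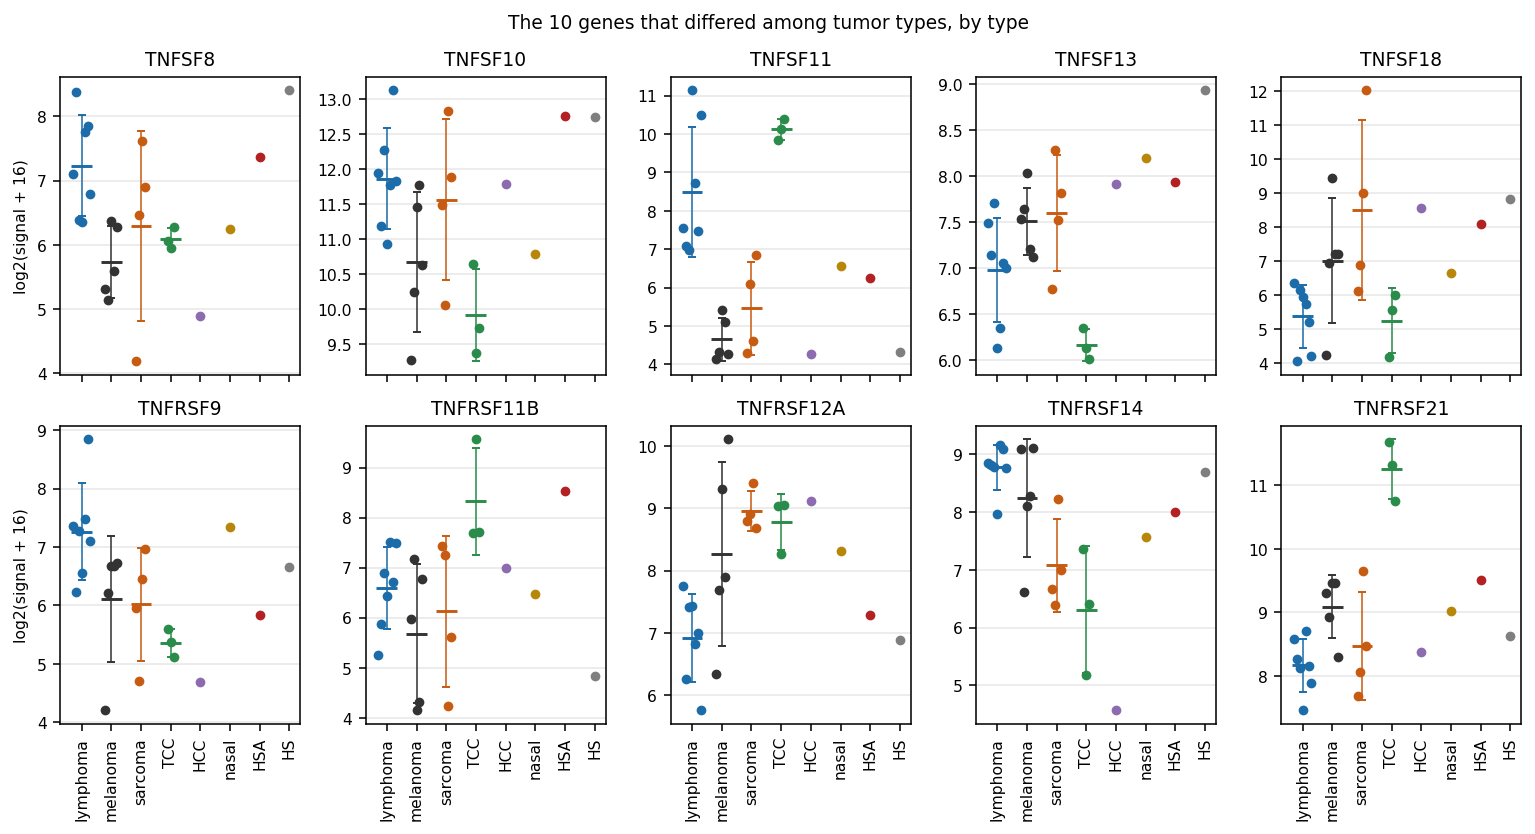
Level of the 10 superfamily genes called in the F test or in a comparison, ligands in the upper row and receptors in the lower, as log2(signal + 16) with 1 point per tumor. Horizontal bars are type means and whiskers 1 SD, for types with more than 1 tumor, and each panel has its own axis. HCC is the hepatocellular carcinoma, nasal the nasal tumor and HS the histiocytic sarcoma. TNFRSF21 and TNFSF11 in TCC stand clear of melanoma and sarcoma.

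Among the receptors, TNFRSF21 (death receptor 6, which carries a death domain) had the smallest F test p of all members. The TCCs were at 11.69, 11.32 and 10.75, the melanomas at 9.30, 8.93, 9.46, 9.46 and 8.30, and the sarcomas at 7.68 and 8.07 in the STS tumors and 9.65 and 8.47 in the other sarcomas. In lymphoma it ran from 7.46 to 8.70, with a median of 8.16. The 3 TCCs lay above all 20 other tumors, the highest of which was Sarcoma 0, and the lymphomas overlapped the sarcomas. TNFRSF21 was higher in TCC by 2.68 ± 0.34 (SE, 95% confidence interval 1.97 to 3.39, adjusted p = 1.73e-05), a 6.4-fold difference on this scale. It was lower in lymphoma, with a log2 difference of -1.43 ± 0.26 (SE, adjusted p = 0.000359) and in sarcoma, at -1.04 ± 0.31 (SE, adjusted p = 0.0434), comparisons whose other 3 types include the TCCs. Against TCC it was also lower, with differences of -3.08 ± 0.37 (SE, adjusted p = 6.44e-06) in lymphoma, -2.16 ± 0.39 (SE, adjusted p = 0.000994) in melanoma and -2.79 ± 0.41 (SE, adjusted p = 0.000169) in sarcoma. The sarcoma call was lost without any 1 of 14 tumors, Lymphoma 0, STS 0, STS 1, TCC 0, Lymphoma 1, Melanoma 0, Melanoma 1, Melanoma 2, TCC 1, Lymphoma 2, Lymphoma 4, Lymphoma 5, Melanoma 3 or Sarcoma 1 (log2 differences -1.05 to -0.78, adjusted p = 0.0504 to 0.194). It was also lost with both pseudocounts, no filter, no variance trend, the block, only the Sarcoma-titled tumors and all 23 tumors (log2 differences -1.22 to -0.45, adjusted p = 0.0312 to 0.716), and the lymphoma call with all 23 tumors (0.0561). Lymphoma against melanoma, at -0.92 ± 0.32 (SE, adjusted p = 0.0433), missed the size of 1 and reached it without Lymphoma 4 (log2 difference -1.01, adjusted p = 0.0367) or Melanoma 4 (log2 difference -1.12, adjusted p = 0.022). Its 2 probesets with 1 symbol agreed over the tumors (r = 0.936), with differences in TCC of 2.48 and 2.88. Another probeset, annotated to both TNFRSF21 and LOC482848 and not used, had a difference in TCC of 0.94 and its highest value, 7.92, in Melanoma 3.

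TNFRSF14 (HVEM, the receptor of LIGHT and a ligand of the inhibitory lymphocyte receptor BTLA) was high in lymphoma and low in TCC. The lymphomas ran from 7.97 to 9.16, with a median of 8.81, the melanomas were at 9.09, 6.61, 8.11, 8.28 and 9.10, and the TCCs at 7.36, 5.17 and 6.40. The sarcomas were at 6.67 and 6.40 in the STS tumors and 8.23 and 7.01 in the other sarcomas. Lymphomas lay above all 3 TCCs and, apart from Lymphoma 3, above all sarcomas, and they overlapped the melanomas. TNFRSF14 was higher in lymphoma by 1.57 ± 0.36 (SE, 95% confidence interval 0.83 to 2.31, adjusted p = 0.00242) and lower in TCC, with a log2 difference of -1.72 ± 0.47 (SE, 95% confidence interval -2.70 to -0.74, adjusted p = 0.0186). Lymphoma exceeded sarcoma by 1.70 ± 0.46 (SE, adjusted p = 0.0128) and TCC by 2.47 ± 0.51 (SE, adjusted p = 0.00164), and melanoma exceeded TCC by 1.93 ± 0.54 (SE, adjusted p = 0.0264). The hepatocellular carcinoma had the lowest value of all 23 tumors, 4.57, and the histiocytic sarcoma was at 8.68. The TCC call was lost without TCC 1 or TCC 2 (log2 differences -1.77 to -1.15, adjusted p = 0.067 to 0.215) or with all 23 tumors (0.185), and that of melanoma against TCC without Melanoma 0, TCC 1, TCC 2 or Melanoma 4 (log2 differences 1.36 to 1.97, adjusted p = 0.058 to 0.196). The lymphoma and sarcoma pair was lost with the block (0.0554) or only the Sarcoma-titled tumors (log2 difference 1.16, adjusted p = 0.206). Its 3 probesets correlated with r of 0.842 to 0.929, each with a positive difference in lymphoma and a negative one in TCC. Of the T cell markers 4 of 8, and of the B cell markers 2 of 6, were also lower in TCC, against 4.36% of all genes tested. Their part in the TNFRSF14 difference was not tested. TNFSF14 (LIGHT), its ligand, did not pass the filter and reached 7.18 in Lymphoma 3.

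TNFRSF12A (Fn14, the receptor of TWEAK, found on many cells of solid tissue) was low in lymphoma. The lymphomas ran from 5.76 to 7.76, with a median of 6.99, the sarcomas were at 8.80 and 8.92 in the STS tumors and 9.42 and 8.69 in the other sarcomas, and the TCCs at 9.04, 8.27 and 9.06. The melanomas were at 6.34, 7.69, 9.31, 7.89 and 10.11. Every lymphoma lay below every sarcoma and TCC, and the melanomas, with the widest spread, reached into the lymphomas. Of the untested tumors, the histiocytic sarcoma (6.88) and the HSA (7.29) lay within the lymphoma range. The nasal tumor (8.32) and the hepatocellular carcinoma (9.12) lay above it. TNFRSF12A was lower in lymphoma, with a log2 difference of -1.75 ± 0.40 (SE, 95% confidence interval -2.59 to -0.92, adjusted p = 0.00261) against the other 3 types, -2.03 ± 0.52 (SE, adjusted p = 0.00876) against sarcoma and -1.87 ± 0.58 (SE, adjusted p = 0.0249) against TCC. The difference from melanoma was -1.35 ± 0.49 (SE, 95% confidence interval -2.37 to -0.33, adjusted p = 0.0544) and did not pass, but it passed without Melanoma 0 (log2 difference -1.83, adjusted p = 0.00728) or Lymphoma 0 (log2 difference -1.49, adjusted p = 0.0461). Of the matrix markers, 6 of 7 were also lower in lymphoma, against 12.1% of all genes tested. Their means per tumor were 7.92 to 9.26, against 9.71 to 13.32 in the other 3 types. In the histiocytic sarcoma, HSA, nasal tumor and hepatocellular carcinoma these means were 10.61, 8.58, 9.05 and 7.92. The part of these markers in the TNFRSF12A difference was not tested. The call against TCC was lost without TCC 0 or TCC 2 (log2 difference -1.74, adjusted p = 0.099 to 0.101), and that against sarcoma with either pair of sarcomas alone (0.0642 and 0.0536).

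TNFRSF9 (CD137, a costimulatory receptor of activated T and NK cells) was highest in lymphoma. The lymphomas ran from 6.23 to 8.84, with a median of 7.28, and the TCCs were at 5.59, 5.37 and 5.12. The melanomas were at 4.21, 6.22, 6.68, 6.68 and 6.73, and the sarcomas at 5.95 and 4.70 in the STS tumors and 6.46 and 6.96 in the other sarcomas. Every lymphoma lay above every TCC, 5 of 7 lay above all tumors of the other 3 types, and the nasal tumor, which was not tested, was at 7.34. TNFRSF9 was higher in lymphoma by 1.44 ± 0.41 (SE, 95% confidence interval 0.58 to 2.29, adjusted p = 0.0117), and by 1.90 ± 0.59 (SE, adjusted p = 0.0257) against TCC. The lymphoma call fell below the rule with a pseudocount of 64 (log2 difference 0.92, adjusted p = 0.00908) and with the replicate block (log2 difference 0.95, adjusted p = 0.173), and the call against TCC was lost without TCC 0, TCC 1 or TCC 2 (log2 differences 1.78 to 2.02, adjusted p = 0.0603 to 0.0988), with a pseudocount of 1 (0.0654) or with the block (0.172). The F test, close to its threshold, was lost without Lymphoma 0, STS 0, Sarcoma 0, TCC 0, Melanoma 1, Melanoma 2, TCC 1, Lymphoma 2, TCC 2, Lymphoma 4, Lymphoma 5 or Lymphoma 6 (adjusted p up to 0.105), with a pseudocount of 1 (0.107), no filter (0.0627) or the block (0.314). TNFRSF9 did not pass the filter in every alternative. Its lymphoma call was thus recomputed in 9 alternatives other than left-out tumors, against 10 for that of TNFRSF14. TNFSF9 (CD137 ligand) did not pass the filter and stayed at or under 6.87.

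Of the 15 genes that passed the filter, 5 were called in no comparison of the main setting: RANK, described above, TNFRSF1A (the main receptor of TNF, with a death domain), TNFRSF13C (the BAFF receptor of B cells), TNFRSF19 (TROY, known from the nervous system and stem cells) and TNFSF13B (BAFF, the B cell survival cytokine). Their F test adjusted p ran from 0.243 to 0.805, and their differences against the other 3 types from -0.93 to 1.60, with interval bounds from -2.19 to 3.04, which leave room for differences of more than 1. TNFRSF19 was at or near the floor in most tumors, with a median of 4.38, and high in the HSA (9.29), STS 1 (8.93), the nasal tumor (7.49) and Sarcoma 0 (7.30). TNFRSF13C was highest in Lymphoma 0 at 8.10, and its difference in lymphoma was 0.93 ± 0.47 (SE, 95% confidence interval -0.06 to 1.92, adjusted p = 0.139). TNFSF13B was highest in Lymphoma 1 (8.53), the histiocytic sarcoma (8.39) and Sarcoma 1 (8.38), with a difference in lymphoma of 0.73 ± 0.46 (SE, 95% confidence interval -0.23 to 1.68, adjusted p = 0.231). Single settings did call some of them. TNFRSF13C was higher in lymphoma without Sarcoma 0, against the other 3 types (log2 difference 1.16, adjusted p = 0.037) and against sarcoma (log2 difference 1.98, adjusted p = 0.0217, from 1.27 with it). TNFSF13B was higher in lymphoma with the STS tumors alone as sarcoma (log2 difference 1.10, adjusted p = 0.0459), and TNFRSF19 lower in lymphoma than in sarcoma without STS 0 (log2 difference -2.41, adjusted p = 0.0343).

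The averaged value of TNFRSF1A rests on 2 probesets that did not follow each other (r = -0.0969 over 23 arrays). The brighter probeset had log2 means of 7.54 for lymphoma, 7.86 for melanoma, 8.54 for sarcoma and 8.88 for TCC, and the dimmer 6.27, 5.82, 5.95 and 5.33, in the opposite order for lymphoma and TCC. With the probeset of highest mean, the F test of TNFRSF1A had an adjusted p of 0.0144, against 0.805 for the average, and TNFRSF1A was lower in lymphoma than in TCC (log2 difference -1.35, adjusted p = 0.00968).

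**Figure D5:**
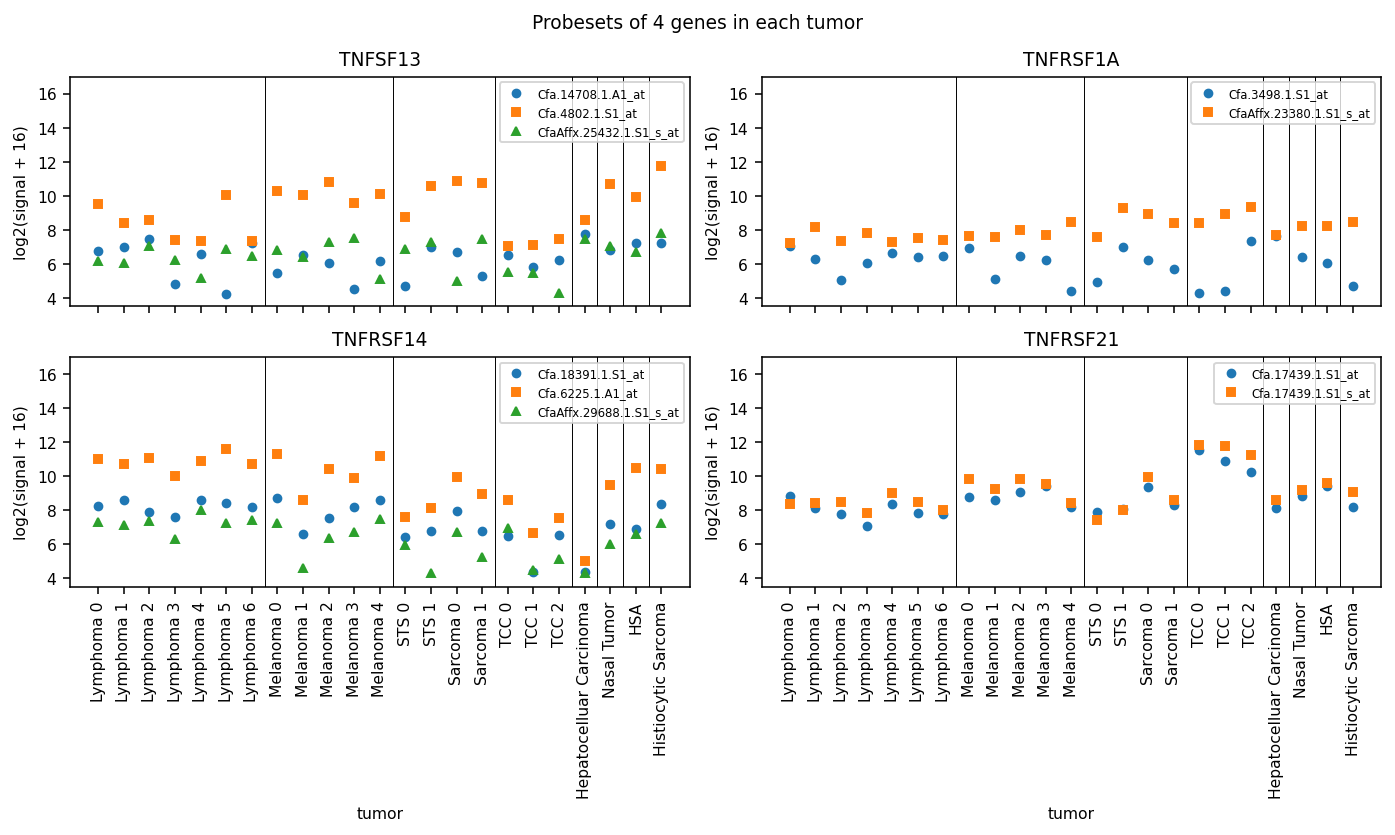
Log2(signal + 16) of each probeset used for 4 superfamily genes in the 23 tumors, 1 symbol per probeset and vertical lines between types. The probesets of TNFRSF14 and of TNFRSF21 move together, and those of TNFSF13 and of TNFRSF1A do not.

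The other 10 members, 4 ligands and 6 receptors, did not pass the filter, since their averaged value lay above its cutoff in at most 2 of the 23 tumors. The ligands were TNFSF4 (OX40 ligand), TNFSF9, TNFSF14 and TNFSF15 (a T cell costimulator of endothelial cells), and the receptors TNFRSF1B (the lymphoid receptor of TNF), TNFRSF4 (OX40), TNFRSF8, TNFRSF13B (TACI, of B cells), TNFRSF18 (GITR) and TNFRSF25 (death receptor 3). TNFRSF13B was highest in Lymphoma 0, at 8.88, and Lymphoma 2, at 7.86, the tumors with the highest B cell marker means (10.37 and 10.31). The average of TNFRSF1B joins 2 probesets that did not follow each other (r = -0.106 over 23 arrays). The dimmer had a median of 4.46, near the floor. The brighter had a median of 6.75 and reached 8.28 in Lymphoma 0, so a low average does not mean that both were low. Its means were 6.80 for lymphoma, 6.57 for melanoma, 6.84 for sarcoma and 6.82 for TCC. In a fit with no filter, 2 of the 10 were called in a comparison and 2 of the 10 passed the F test, against 22.2% of all 15115 genes. The share of all genes higher in that fit was 4.82% in lymphoma and 2.65% in sarcoma, and 2.62% were lower in TCC. TNFRSF18 was higher in lymphoma by 1.62 ± 0.33 (SE, adjusted p = 0.00141), 6 of the 7 lymphomas lying from 6.14 to 7.01 and Lymphoma 1 at 4.51, while the sarcomas and TCCs stayed between 4.26 and 4.93 and the melanomas between 4.30 and 5.93. Among the untested tumors the hepatocellular carcinoma (6.53) and the histiocytic sarcoma (6.25) lay among the lymphomas. TNFRSF25 differed by 1.40 ± 0.36 (SE, adjusted p = 0.0298) in sarcoma and -1.30 ± 0.40 (SE, adjusted p = 0.0465) in TCC, with 6.71, 6.17, 6.14 and 6.72 in the 4 sarcomas and 4.28, 4.29 and 4.67 in the TCCs. The melanomas, at 6.41, 4.30, 6.43, 6.03 and 5.32, and the lymphomas, at 4.44 to 5.83, overlapped the TCCs, and 2 melanomas lay among the sarcomas. Both genes were near the floor in several tumors, and the histiocytic sarcoma had the highest TNFRSF25, 6.91.

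In the RefSeq annotation of the grey wolf assembly mCanLup2.hap1, used here for neighbourhood alone, all 25 symbols were found and 4 pairs of members lie next to each other. They are TNFSF8 with TNFSF15, TNFSF18 with TNFSF4, TNFRSF4 with TNFRSF18 and TNFRSF1B with TNFRSF8. Of these, TNFSF8 and TNFSF18 passed the filter.

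In the 4 types with 1 tumor, no superfamily gene lay beyond all 22 other tumors by 1 or more. The histiocytic sarcoma had the highest TNFSF8, TNFSF13 and TNFRSF25 and the lowest TNFRSF8, with differences from the mean of the other 22 of 1.98, 1.69, 1.59 and -1.06. The hepatocellular carcinoma had the lowest TNFRSF14, -3.34 from that mean, and the highest TNFSF15 (0.94). The HSA had the highest TNFRSF19 (4.18), and the nasal tumor was highest or lowest in none. In TNFSF11, which was high in TCC, the hepatocellular carcinoma and the nasal tumor, whose epithelial marker means were 10.28 and 10.79, were at 4.26 and 6.57. In TNFRSF21 they were at 8.38 and 9.02, below the 3 TCCs.

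Members of the superfamily that carry other symbols were listed separately. Of 15, 14 were annotated and 7 passed the filter, and in lymphoma 5 of the 7 were higher and 1 lower, with a median log2 difference of 1.80 against 0.07 over all genes, where 6.95% were higher and 12.1% lower. The 5 were CD27 (a costimulator of T and memory B cells) at 2.14 ± 0.56 (SE, adjusted p = 0.00656), CD40LG (the helper T cell ligand) at 2.05 ± 0.52 (SE, adjusted p = 0.0055), CD40 (its receptor on B cells and macrophages) at 1.93 ± 0.49 (SE, adjusted p = 0.00557), FASLG and TNF. LTBR (the lymphotoxin beta receptor of stromal and myeloid cells) was lower at -1.39 ± 0.25 (SE, adjusted p = 0.000338). CD40LG exceeded the filter cutoff only in Lymphoma 3, 4 and 6. FASLG exceeded it only in Lymphoma 0, 2, 3 and 5 and in the histiocytic sarcoma. Both genes thus passed the filter through lymphomas, the type in which they were called higher. The count of 5 of 7 and the median of 1.80 are therefore not independent of the filter, and are not read as an excess. CD40LG was highest in Lymphoma 3, 4 and 6 (8.50, 9.41 and 8.97), the lymphomas highest in TNFSF11, and CD40 in Lymphoma 0, 2 and 5 (11.15, 10.68 and 10.52). In TCC 1 of the 7 was called, CD40 at -2.72 ± 0.64 (SE, adjusted p = 0.00752), and in melanoma and sarcoma 0 of 7, where 0 and 1 had an unadjusted p under 0.05 in limma.

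The genes that act behind the receptors were counted in 3 lists, against the same shares of all genes as above, 6.95% higher and 12.1% lower in lymphoma, 2.55% and 1.77% in melanoma, 4.33% and 1.71% in sarcoma and 6.82% and 4.36% in TCC. Of 14 tested adaptors and death signal genes, 3 were higher in lymphoma and 0 lower, TRAF5 at 2.64 ± 0.38 (SE, adjusted p = 4.32e-05), CASP8 (the caspase of death receptors) at 2.02 ± 0.32 (SE, adjusted p = 0.000117) and BIRC3 (an inhibitor of apoptosis) at 1.53 ± 0.45 (SE, adjusted p = 0.0133). CASP8 was the 1 gene called in melanoma, lower at -1.74 ± 0.36 (SE, adjusted p = 0.00549), TRAF5 the 1 called in TCC, -1.65 ± 0.50 (SE, adjusted p = 0.034), and sarcoma had 0 of 14, with 1 at an unadjusted p under 0.05 in limma. Of 18 NF-kB pathway genes, lymphoma had REL higher at 1.25 ± 0.32 (SE, adjusted p = 0.00642) and NFKBIZ lower at -1.27 ± 0.45 (SE, adjusted p = 0.0349), 1 of 18 in each direction being no more than the share of all genes, and melanoma, sarcoma and TCC had 0 of 18, with 2, 1 and 7 at an unadjusted p under 0.05. Of 15 NF-kB targets, 4 were higher and 1 lower in lymphoma, among them BCL2A1 at 2.67 ± 0.58 (SE, adjusted p = 0.00176), CCL20 at 2.11 ± 0.63 (SE, adjusted p = 0.0154) and SELE at 1.75 ± 0.44 (SE, adjusted p = 0.00539). In TCC 2 were lower, CCL2 at -2.93 ± 0.89 (SE, adjusted p = 0.0333) and ICAM1 at -2.30 ± 0.48 (SE, adjusted p = 0.00301), and the list's median there was -1.34 against -0.08 over all genes. Melanoma had CXCL8 higher at 3.51 ± 0.92 (SE, adjusted p = 0.0292) and VCAM1 lower at -1.91 ± 0.47 (SE, adjusted p = 0.0211), and sarcoma had ICAM1 higher at 2.20 ± 0.44 (SE, adjusted p = 0.00499).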

How the data were processed

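Tumor RNA was amplified with the NuGEN Ovation Pico WTA system and hybridised to 1 Affymetrix array per tumor. The deposited values are linear signal intensities that the authors made with MAS5, which summarises each probeset and scales each array. The mean of an array after trimming 2% of its probesets from both ends was 500.1 throughout, and array medians ran from 81.9 to 132.2. The number of arrays limits the precision. The annotation gives 1 symbol to 29254 of 42924 probesets, and those with several symbols were not used. The 25 members have 40 probesets, 16 members having 1 each.

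Values were taken as log2(signal + 16), and the probesets of a gene were averaged. A gene was kept when at least 3 of 23 arrays exceeded the median of all gene values, 7.03, and 9972 of 15115 were. The 19 tumors of 4 types entered a linear model in limma 3.58.1 under R 4.3.3, using lmFit and contrasts.fit, and eBayes was run with trend, two-sided, with Benjamini-Hochberg adjustment over all kept genes. For single values among many genes the adjusted p is that of limma. Confidence intervals use the moderated degrees of freedom. All called members are named, and from each other list up to 3 called genes per comparison. The members and lists were chosen with earlier results of these data known. The steps were tested on simulated data. Alternatives were the pseudocount, quantile normalization, the filter, the choice of probeset, the variance trend, a replicate block, the sarcoma labels, all 23 tumors as 2 groups and leaving out each tumor. Gene sequences were not used here.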

Additional observations from a re-analysis of the deposited data

Results flagged for a closer look

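The 10 called genes were checked in lymphoma, melanoma and sarcoma, 30 groups in all, for a tumor whose gap to its nearest neighbour was large against the range of its group. Chance marks about 1 group in 20, and 2 of the 30 were marked. TNFRSF14 in Lymphoma 3 was 7.97, below the other 6 lymphomas at 8.76 to 9.16, and the lymphoma call of TNFRSF14 held when each tumor was left out in turn (log2 differences 1.38 to 1.74). TNFRSF9 in Melanoma 0 was 4.21, near the floor of the scale, where the other 4 melanomas were at 6.22 to 6.73, and the lymphoma call of TNFRSF9 likewise held (log2 differences 1.17 to 1.61). Melanoma 0 also had the highest 3′ over 5′ actin ratio of all tumors, 9.05 on the log2 scale. Its GAPDH ratio, 7.24, lay within the range of the other tumors, and the highest was 9.74 in STS 1. The part of these ratios in the TNFRSF9 value of Melanoma 0 was not tested.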

How the results depend on the processing

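No call of a superfamily gene turned direction under any alternative. Of the 34 calls over the 10 comparisons, 11 held under all of theirs: TNFRSF12A and TNFRSF14 in lymphoma, TNFRSF14 in lymphoma against TCC, TNFRSF21 in TCC and in its 3 pairs with TCC, and TNFSF11 in TCC, in lymphoma against melanoma and in melanoma and sarcoma against TCC. Apart from left-out tumors, 56 of 319 recomputed calls were lost, and 23 calls absent from the main setting were gained, 16 of them of genes that passed the filter. A left-out tumor gained a further 18. A call was recomputed only where its gene passed the filter of that setting. The cause of these changes was not tested.

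The count of members passing the F test, 8, was 5 with a pseudocount of 1 and 5 with the replicate block. In lymphoma the count of 7 became 4 with a pseudocount of 64, 3 with the block and 4 with all 23 tumors as 2 groups, and in TCC that of 5 became 2 with all 23 tumors. In melanoma the count of 1 became 2 with the probeset of highest mean and 0 with all 23 tumors. In sarcoma the count of 2 became 0 with a pseudocount of 1, the block or all 23 tumors, and 1 with a pseudocount of 64, no variance trend or either pair of sarcomas alone. Lymphoma against melanoma fell from 2 to 1 with both pseudocounts, no filter or the block, lymphoma against sarcoma from 4 to 2 with the block and 1 with only the Sarcoma-titled tumors, melanoma against TCC from 5 to 3 with a pseudocount of 1, and sarcoma against TCC rose from 3 to 5 with only the Sarcoma-titled tumors. Leaving out each tumor gave 4 to 9 for the F test, 5 to 8 for lymphoma, 1 to 1 for melanoma, 0 to 2 for sarcoma and 2 to 6 for TCC. The pairs gave 1 to 3 for lymphoma against melanoma, 3 to 5 against sarcoma and 2 to 6 against TCC, 0 to 0 for melanoma against sarcoma and 2 to 5 against TCC, and 2 to 4 for sarcoma against TCC. For these counts, and for those with the block below, the share of all genes called in each setting is not given. A change in a count is therefore not read as particular to the members.

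The number in the sample titles served as the replicate block, and nothing in the labels says that it pairs tumors. Deviations from the type means correlated by 0.0105 on average for 23 pairs with the same number and -0.00219 for 108 with different numbers. These averages do not show what single genes do. Whether tumors of the same number share anything else was not tested. With the block the F test passed 5 members, lymphoma called 3 and TCC 5.

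TCC has 3 tumors and its calls against the other 3 types, apart from TNFSF11 and TNFRSF21, were lost without at least 2 of its tumors in turn. The members near the floor of the scale, among them TNFSF11 in melanoma, have differences that depend on the pseudocount. That of TNFSF11 in melanoma was -4.66 with a pseudocount of 1 and -2.31 with 64.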
